A study of Mus musculus with 8 samples.

Results

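The 10 genes Thbs1, Thbs2, Thbs3, Comp, Tnc, Tnxb, Spp1, Postn, Sparc and Fn1 encode thrombospondins, tenascins and other matricellular or adhesive glycoproteins. Probes were taken by the gene symbol in the platform annotation, which gave 19 probes of 8 genes among the 25697 probes and 16593 genes of the array. No probe carried the symbol Spp1 or Fn1, so these genes are not analysed here. Of the 19 probes, 14 from 6 genes were detected (detection p-value under 0.05) on at least 4 of the 8 arrays.

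The arrays came from primary vascular smooth muscle cells of the carotid artery of male C57bl6 mice that lack the plasma membrane calcium pump PMCA4, encoded by Atp2b4. In the 4 rescued samples these PMCA4 knockout cells had received, by electroporation, a cDNA encoding the PMCA4a splice form, and the 4 knockout samples had not. The cells of all 8 samples were serum synchronised, stimulated with serum and PDGF-BB, and collected in late G1/S. No knockout cells electroporated without PMCA4a were analysed, so electroporation and PMCA4a cannot be told apart, and the labels do not say whether replicates were separate cultures or animals. P-values therefore reflect the variation among these samples, and this may be technical.

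Matricellular proteins are secreted into the extracellular matrix, where they act mainly as signals and adaptors between matrix, growth factors and cell surface receptors rather than as load-bearing fibres. Several of them are low in quiescent adult tissue and are induced during development, wound repair and vascular injury, and in arteries they are linked to smooth muscle migration and proliferation. Thrombospondins bind receptors such as CD36, CD47 and integrins, tenascin C modulates adhesion to fibronectin, and SPARC binds collagen.

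Across these genes the rescued cells had much less Thbs2 transcript and more Tnxb transcript. Thbs2 was 27.0-fold lower and Tnxb was 4.02-fold to 5.28-fold higher at its 3 detected probes. Tnc was 1.85-fold lower at its 2 bright probes, with a wide spread among the rescued arrays. For Thbs1 and Thbs3 no probe passed the test, at Sparc 1 of 2 probes was slightly lower, and Comp and Postn were detected on none of the arrays. Of the 14 probes tested, 3 were higher and 4 were lower at an adjusted p under 0.05, which is 50% of them, while 38.8% of all 12658 tested probes passed (20% higher and 18.7% lower; limma, Benjamini-Hochberg over all tested probes). The groups did not overlap at 6 of the 14 member probes, as at 38.8% of all tested probes. With at least a 4-fold change in addition, 4 member probes passed (Thbs2 and 3 of Tnxb), against 1.29% of all tested probes. That count was 1 (Thbs2) without background correction or with normexp and an offset of 50, and 3 with cyclic loess, with array weights, or without rescued replicate 3, rescued replicate 4 or knockout replicate 4. Taking the brightest probe of each of the 6 genes, 1 was higher, 2 were lower and 3 did not pass, while 39.9% of all genes passed. With the detected probes of each gene averaged, Sparc also passed (log2 difference -0.22, limma adjusted p = 0.0424). Tnc then differed by -0.54, just under the threshold (adjusted p = 0.0495). The median difference of the 14 probes was -0.14 on the log2 scale, beside 0.00 over all tested probes.

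The samples were first checked over the whole array. Between 12640 and 12873 probes were detected on rescued arrays and between 12223 and 12427 on knockout arrays. The median intensity ran from 115 to 118 units on rescued arrays and from 108 to 118 units on knockout arrays. Without between-array normalisation, 2529 probes were higher and 1396 lower in rescued cells, against 2537 and 2369 with it. Of 3 Atp2b4 probes, 2 were detected on none of the 8 arrays, rescued ones included. The other was detected on all 4 rescued and on 3 knockout arrays, averaging 5.54 over rescued and 5.51 over knockout arrays (difference 0.02 on the log2 scale, limma adjusted p = 0.911). Whether that probe lies in the deleted part of the gene or in the electroporated cDNA was not tested, so it does not check the labels. Of the smooth muscle markers, Acta2 lay near the top of the signal range (15.83 in rescued and 15.87 in knockout cells), Cnn1 was not detected on any, and Myh11 was detected on 1 rescued array only. Tagln averaged 8.84 over rescued and 10.27 over knockout arrays, a log2 difference of -1.43 (limma adjusted p = 0.000162). Of the 7 smooth muscle markers tested, 2 were higher and 2 were lower, while 39.9% of all 8633 genes with 1 tested probe each passed. Beside Tagln, and named after their values were seen, Actg2 was lower (log2 difference -2.85), and Myocd (1.70) and Smtn (0.43) were higher. Myocd was detected on 4 rescued and 1 knockout arrays, so it was kept through the rescued arrays where it is high.

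**Figure D1:**
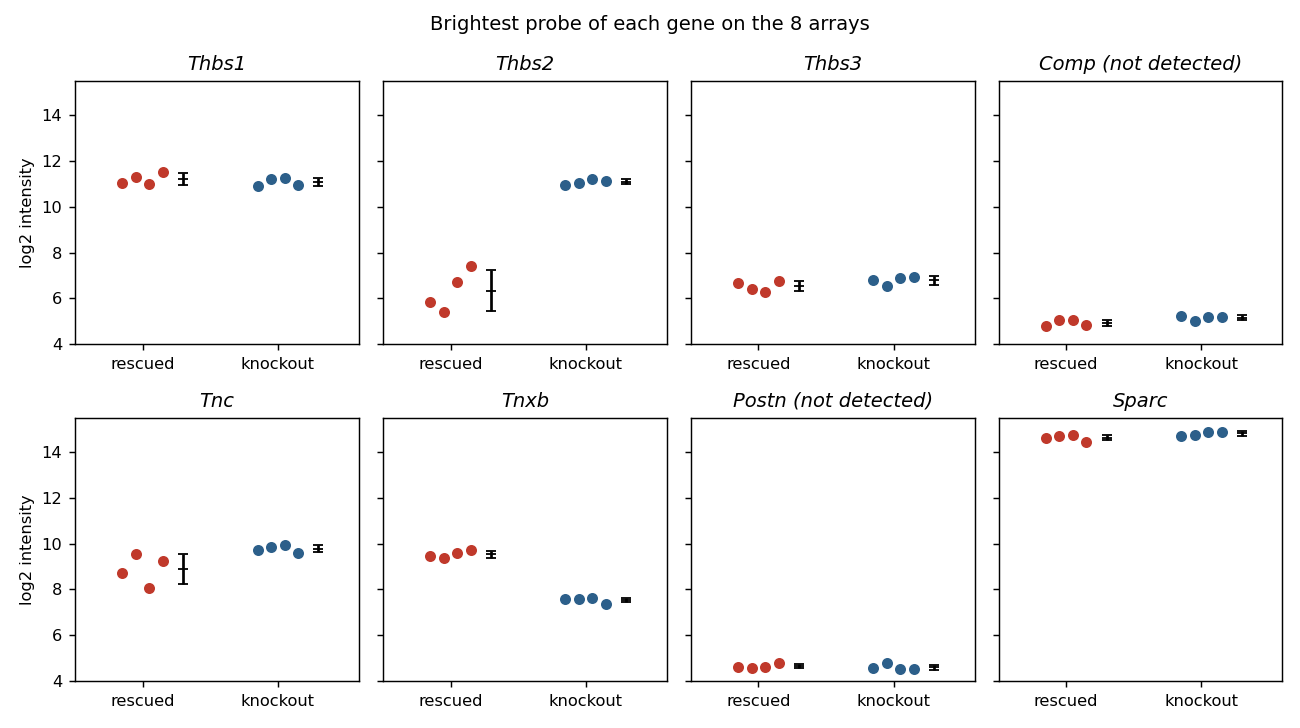
Normalised log2 intensity of the brightest probe of each of the 8 genes with a probe, with 1 point per array (4 rescued, 4 knockout) and the mean and SD beside the points. The rescued arrays sit between 5.41 and 7.41 for Thbs2, below all knockout arrays, and between 9.38 and 9.72 for Tnxb, above all knockout arrays.

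Thbs2 and Tnxb had the largest differences, in opposite directions, and their promoter sequences are shown for that reason. The sequences are RefSeq entries of build GRCm38.p6, 250 bases before to 50 bases after an annotated transcription start, 5′ to 3′ on the strand of the gene. Entries were found for 7 of the 10 genes. Capitals mark matches, on either strand, to the AP-1 motif (TGACTCA or TGAGTCA, which are reverse complements), the AP-2 motif (GCCNNNGGC), the RUNX motif (TGTGGT or TGCGGT), the TATA motif (TATAAA) or the CArG box, the serum response element. No match overlapped another in these 2 windows.
Thbs2, chr17:14694213-14694512, minus strand: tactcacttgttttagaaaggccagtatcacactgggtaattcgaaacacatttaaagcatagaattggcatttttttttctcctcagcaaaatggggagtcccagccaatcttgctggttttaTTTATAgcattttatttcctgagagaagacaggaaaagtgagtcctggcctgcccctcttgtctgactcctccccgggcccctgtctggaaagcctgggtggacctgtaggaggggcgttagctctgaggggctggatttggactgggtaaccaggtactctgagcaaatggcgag
Tnxb, chr17:34670285-34670584, plus strand: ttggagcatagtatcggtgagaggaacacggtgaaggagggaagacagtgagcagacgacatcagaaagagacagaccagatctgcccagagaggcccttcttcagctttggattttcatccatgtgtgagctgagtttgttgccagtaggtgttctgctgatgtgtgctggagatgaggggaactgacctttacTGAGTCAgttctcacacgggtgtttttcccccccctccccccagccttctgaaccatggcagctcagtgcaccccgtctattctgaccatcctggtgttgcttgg

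The Thbs2 window held 1 TATA match on the opposite strand, starting at position -126 from the start site. The Tnxb window held 1 AP-1 match, starting at position -55. Of 32851 promoter windows of 300 bases, 13.6% held the TATA motif, 5.2% AP-1, 16.6% AP-2, 22.4% RUNX and 1.63% a CArG box. The AP-2, RUNX and CArG letters were not found in either window. These matches are descriptions of the letters in these windows.

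Among the thrombospondins, Thbs2 encodes a secreted trimeric glycoprotein that restrains angiogenesis and helps clear matrix metalloproteinases. Its only probe, ILMN_2635229, had raw intensities of 139, 122, 197 and 253 units on rescued arrays 1 to 4, and 2007, 2386, 2491 and 2022 units on knockout arrays 1 to 4. On the normalised log2 scale these were 5.83, 5.41, 6.71 and 7.41 in rescued cells, and 10.96, 11.06, 11.22 and 11.14 in knockout cells. All 4 rescued arrays lay far below the knockout arrays, and the probe was nevertheless detected on each of them.

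The Thbs2 mean was 6.34 ± 0.89 over rescued arrays and 11.09 ± 0.11 over knockout arrays (SD, n = 4 each). The log2 difference was -4.75 (SE 0.36, 95% interval -5.57 to -3.93, limma adjusted p = 1.38e-05). By absolute size it ranked 8 among the 12658 tested probes. The rescued signals were near background, and without background correction the log2 difference was -3.63 (adjusted p = 8.91e-09). Leaving out each array in turn gave differences from -5.12 to -4.45. In RNA from a whole culture, fewer cells that make a transcript and less transcript per cell cannot be told apart.

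Thbs1, which encodes an activator of latent TGF-beta that is induced in injured arteries, was bright in both groups. Its probe ILMN_2659151 read 11.04, 11.32, 10.98 and 11.54 in rescued cells, and 10.93, 11.21, 11.27 and 10.96 in knockout cells. The groups overlapped, and the log2 difference of 0.12 did not pass (95% interval -0.18 to 0.43, limma adjusted p = 0.505). The interval holds changes of up to 0.43 on the log2 scale, so a small change is not shown to be absent.

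Thbs3, which encodes a pentameric thrombospondin studied in the mouse skeleton, was dim. Its brightest probe read 6.66, 6.41, 6.28 and 6.75 in rescued cells, and 6.81, 6.53, 6.88 and 6.93 in knockout cells. The groups overlapped and the log2 difference was -0.26 (95% interval -0.55 to 0.02, limma adjusted p = 0.135). The other 2 probes differed by -0.11 and -0.08 without passing and did not follow the brightest probe across the 8 arrays (Pearson r = -0.03 and -0.14, a description over arrays near background). Comp, the pentameric thrombospondin of cartilage and tendon, had raw intensities of 103 to 113 units on rescued and 108 to 118 units on knockout arrays and was not detected on any.

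Relatives within the family were also compared in pairs. For each array the log2 value of one gene was subtracted from that of another, and the 2 groups were compared by a two-sided exact permutation test over arrays, with adjustment over 4 pairs. The Thbs2 minus Thbs1 value was lower in rescued cells by 4.88 on the log2 scale, and the difference reached the smallest p that 4 against 4 can give (exact p = 0.0286, adjusted p = 0.0381). Thbs3 minus Thbs2 was higher in rescued cells by 4.49 (exact p = 0.0286, adjusted p = 0.0381). The Thbs2 groups lay further apart (7.41 against 10.96 at the closest) than Thbs1 or the Thbs3 probe ranged over the 8 arrays. Both tests therefore had to reach this p, and they restate the Thbs2 difference without adding separate evidence. Thbs3 minus Thbs1 differed by -0.39 without passing (exact permutation p = 0.0857). The 3 pairs with Comp were not run because Comp was not detected.

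**Figure D2:**
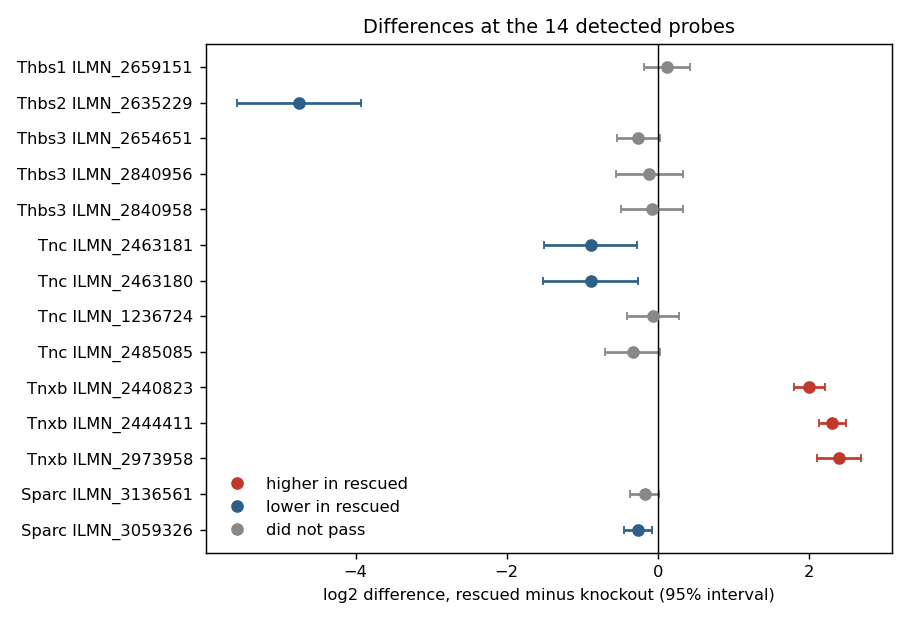
Log2 difference, rescued minus knockout, with its 95% interval for the 14 probes detected on at least 4 arrays, with red for higher, blue for lower and grey for probes that did not pass. The Thbs2 probe stands at -4.75, the 3 Tnxb probes lie between 2.01 and 2.40, and the Tnc probes split into 2 near -0.89 and 2 that did not pass.

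Of the tenascins, Tnxb encodes tenascin X, a large glycoprotein that regulates the spacing and stability of collagen fibrils and whose loss in humans causes a form of Ehlers-Danlos syndrome. Its brightest probe, ILMN_2440823, read 9.46, 9.38, 9.61 and 9.72 in rescued cells, and 7.59, 7.57, 7.61 and 7.37 in knockout cells. All rescued arrays lay above all knockout arrays. The means were 9.54 ± 0.15 over rescued arrays and 7.54 ± 0.11 over knockout arrays (SD, n = 4 each), a log2 difference of 2.01 (SE 0.09, 95% interval 1.80 to 2.22, limma adjusted p = 5.73e-07).

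The other 2 detected Tnxb probes gave the same direction. ILMN_2444411 read 9.06 to 9.32 in rescued and 6.78 to 6.98 in knockout cells, a log2 difference of 2.31 (limma adjusted p = 1.55e-07). ILMN_2973958 read 8.56 to 8.79 in rescued and 5.99 to 6.54 in knockout cells, a log2 difference of 2.40 (limma adjusted p = 1.43e-06). The remaining Tnxb probe, at 93.6 to 106 units in rescued and 86.0 to 107 units in knockout cells, was not detected on any array. Without background correction the 3 differences were 1.58, 1.67 and 1.52 and all passed. Whether the probes report the same transcript forms was not tested.

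Tnc encodes tenascin C, a hexameric glycoprotein that appears in remodelling arteries. Its brightest probe, ILMN_2463181, read 8.73, 9.54, 8.05 and 9.23 in rescued cells, and 9.74, 9.83, 9.94 and 9.59 in knockout cells. All rescued arrays lay below the knockout arrays, though rescued replicate 2 was only just below the lowest of them, and rescued replicate 3 was the lowest of all. The second bright probe, ILMN_2463180, kept the same order among rescued arrays, with 8.40, 9.19, 7.67 and 8.96 in rescued cells, and 9.44, 9.51, 9.55 and 9.28 in knockout cells.

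The Tnc means were 8.89 ± 0.65 over rescued arrays and 9.78 ± 0.15 over knockout arrays at the brightest probe (SD, n = 4 each). The log2 differences of the 2 bright probes were -0.89 each (SE 0.27 and 0.28, limma adjusted p = 0.0284 and 0.0313). These calls were close to the threshold. Leaving out rescued replicate 1 or knockout replicate 1, 2 or 3 ended both calls (log2 differences from -0.90 to -0.83, adjusted p from 0.0559 to 0.0737), and leaving out knockout replicate 4 ended that of the second probe (-0.94, adjusted p = 0.052). Without a detection filter the second probe also missed the threshold (adjusted p = 0.0545).

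Of the other 4 Tnc probes, 2 were not detected on any array. The 2 dim ones differed by -0.06 and -0.33 without passing (limma adjusted p = 0.781 and 0.14). The second of them, ILMN_2485085, was at -0.49 without knockout replicate 4 and then passed (adjusted p = 0.0198). The Tnxb minus Tnc value was higher in rescued cells by 2.90 on the log2 scale (exact permutation p = 0.0286, adjusted p = 0.0381). On every rescued array the brightest Tnxb probe lay above, and the brightest Tnc probe below, all knockout arrays. This p therefore followed from the values of the 2 genes and is no separate evidence.

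Position on the chromosome was examined in addition, with neighbours chosen by place alone. Thbs2 and Tnxb both lie on chromosome 17, whose 589 tested probes had a median log2 difference of -0.02. The 3 nearest measured genes on each side ranged from -0.31 to 0.32 around Thbs2 and from -0.64 to 0.28 around Tnxb, and in each set 1 of 6 passed. Neither neighbourhood held a difference of the size seen at the gene itself. Tnc lies on chromosome 4, where the median of 746 probes was -0.19. Other chromosomes were shifted too, with medians from -0.31 on chromosome 12 to 0.21 on chromosome 15. That of chromosome 3, which holds Thbs3, was -0.18, and with each chromosome centred the brightest Thbs3 probe differed by -0.08. Around Tnc the ATPase subunit gene Atp6v1g1 (-0.46), Tmem268 (-0.61) and Trim32 (-0.26) were lower and Whrn (1.09) was higher, so 4 of 6 passed. Of all 8633 genes with 1 tested probe each, 39.9% passed, and sets of 6 are too small to tell apart from that share. With each chromosome centred, the 2 bright Tnc probes differed by -0.70 each and no longer passed (adjusted p = 0.0725 and 0.0792), which left 3 higher and 2 lower of the 14 member probes.

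**Figure D3:**
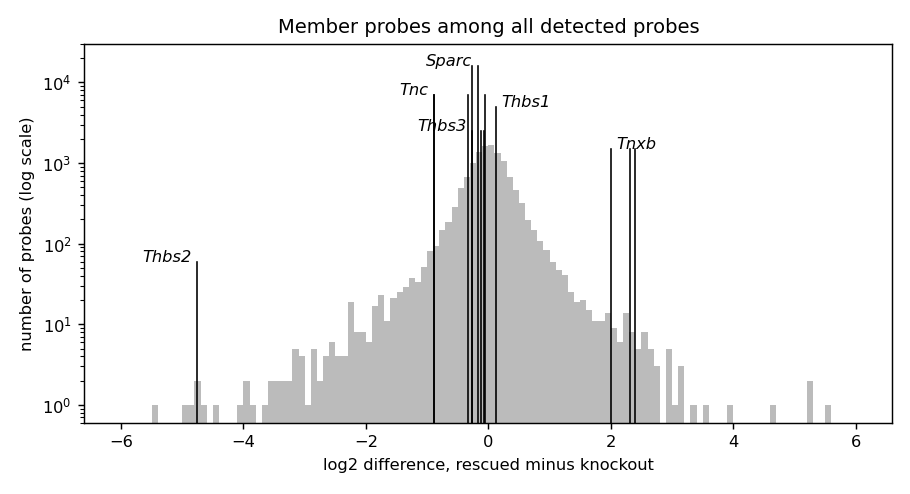
Number of the 12658 tested probes (log scale) by log2 difference, rescued minus knockout, in steps of 0.1, with black lines at the probes of the 6 detected genes. The Thbs2 line at -4.75 lies in the sparse left tail, and the lines of Thbs1, Thbs3 and Sparc lie within the central mass.

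Sparc encodes osteonectin, a collagen-binding glycoprotein that limits cell spreading, and had the brightest probes among these genes. Probe ILMN_3136561 read 25117, 25836, 27815 and 21774 units on rescued arrays and 27430, 30286, 31244 and 27996 units on knockout arrays, well under the brightest signals of 61011 to 65109 units. On the normalised scale this probe overlapped between groups and differed by -0.18 (limma adjusted p = 0.128). Probe ILMN_3059326 read 14.068, 13.996, 14.207 and 13.948 in rescued cells, and 14.274, 14.325, 14.207 and 14.461 in knockout cells. The highest rescued and the lowest knockout array met at the same value, and the log2 difference of -0.26 passed (1.20-fold lower, limma adjusted p = 0.0337). Leaving out any 1 of 6 arrays (rescued replicate 1, 2 or 4, knockout replicate 1, 2 or 4) ended this call, with adjusted p from 0.058 to 0.0881, as did leaving the arrays without between-array normalisation (adjusted p = 0.0563). Postn, which encodes periostin, a fasciclin-domain protein of injured arteries, had 90.2 to 103 units in rescued and 85.3 to 103 units in knockout cells, and no array detected it.

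The SD was larger over rescued arrays at 10 of the 14 probes and larger over knockout arrays at 4, and this was not tested. The share over all tested probes was not counted, so a larger rescued SD is not shown to be particular to these genes. The SD over rescued and knockout arrays was 0.89 and 0.11 for Thbs2, 0.65 and 0.15 for the brightest Tnc probe, 0.11 and 0.27 for Tnxb probe ILMN_2973958, and 0.11 and 0.41 for Thbs3 probe ILMN_2840958. Thbs2 and Tnc did not follow the same order of arrays: rescued replicate 4 was highest for Thbs2, and rescued replicate 2 for Tnc. Markers of adventitial fibroblasts, another cell type of the artery wall, varied among the same arrays. Of 12 such markers with a probe, 10 were detected on at least 4 arrays, of which 1 was higher and 5 were lower in rescued cells. Of all 8633 genes with 1 tested probe each, 39.9% passed (21% higher, 18.9% lower). The mean log2 level of the 10 markers ran from 8.62 to 9.65 on rescued and from 9.78 to 9.88 on knockout arrays. It was highest among rescued arrays on replicate 3. Pdgfra, their defining receptor, was at 9.28, 9.0, 9.47 and 8.57 in rescued cells and at 11.15 to 11.43 in knockout cells. Their part in the Thbs2 and Tnc results was not tested.

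Marker levels of other cell types were as follows. Endothelial markers averaged 7.20 to 7.40 on rescued and 6.50 to 6.73 on knockout arrays, with 5 of 11 kept, while their defining genes Pecam1 and Cdh5 were not detected on any array. Among those kept, Vwf and Nos3 were detected on all 4 rescued and on no knockout array. They entered this mean only through the rescued arrays, so its higher rescued level is partly set by the filter. Macrophage and leukocyte markers averaged 7.18 to 7.35 on rescued and 6.37 to 6.75 on knockout arrays, with 5 of 11 kept, and Ptprc was not detected on any array. Of those kept, 3 were higher and 1, Cd53, was lower (log2 difference -1.24). Lyz2 was detected on 4 rescued and 1 knockout arrays, so it too was kept through the rescued arrays. Cartilage and bone markers averaged 7.56 to 8.29 on rescued and 6.10 to 6.27 on knockout arrays, with 5 of 12 kept and 3 higher. Without Col2a1, which averaged 10.67 over rescued and 5.09 over knockout arrays, the 4 others averaged 6.95 to 7.30 on rescued and 6.36 to 6.59 on knockout arrays. Of these, Bglap (6.92 in rescued and 5.35 in knockout cells) was detected on 4 rescued and 2 knockout arrays. It too was kept through the rescued arrays, so the filter still has a part in this mean. In this list Acan was not detected, Col2a1 was detected on all 4 rescued and on no knockout array, and Sox9 was at 8.61 in rescued and 8.45 in knockout cells. Smooth muscle markers averaged 8.42 to 8.86 on rescued and 8.90 to 9.11 on knockout arrays, with 7 of 12 kept, among them Myocd through the rescued arrays. None of the 4 glial markers with a probe was kept, and Sox10 had no probe under its symbol. Beside the counts of markers higher or lower, 39.9% of all 8633 genes with 1 tested probe each passed. The part of these marker levels in the results was not tested.

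**Figure D4:**
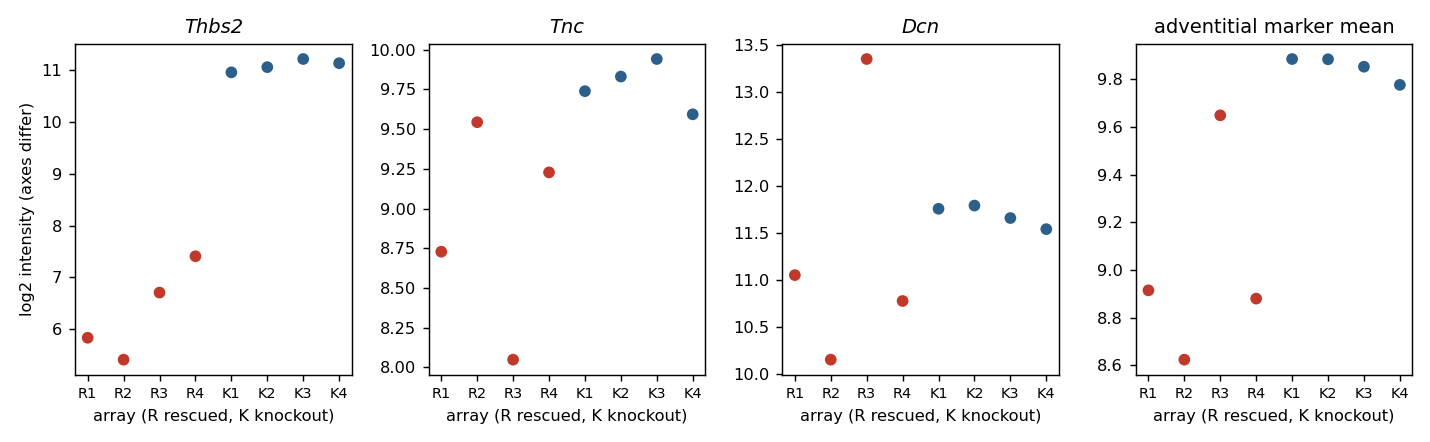
Normalised log2 intensity on each array (R for rescued, K for knockout, replicates 1 to 4) of the brightest probes of Thbs2, Tnc and the fibroblast marker Dcn, and the mean of 10 adventitial fibroblast markers, each panel on its own axis. On rescued replicate 3, Tnc was lowest (8.05) and Dcn highest (13.35) of the 8 arrays. Markers of the list differed there, since Mfap5, not drawn, was lowest of the 8 arrays (8.99). The marker mean on that array (9.65) lay below all knockout arrays. Dcn itself did not pass between the groups (log2 difference -0.36, limma adjusted p = 0.657).

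The genes with values most like Thbs2 over the 8 arrays were Tpsab1 (Pearson r = 0.997), Mocos (0.995), Slc24a3 (0.994), Gch1 (0.993) and Apbb1ip (0.993). Tpsab1, a mast cell tryptase gene, averaged 4.98 in rescued and 7.40 in knockout cells. Slc24a3, a potassium-dependent sodium-calcium exchanger gene, averaged 6.35 in rescued and 7.57 in knockout cells. Most like Tnxb were Irx5 (r = 0.998), Egfr (0.995), Tuft1 (0.995), Cela1 (0.994) and Ano2 (0.994). The receptor gene Egfr averaged 11.48 in rescued and 9.82 in knockout cells. Tpsab1 in rescued cells and Ano2 in knockout cells (4.63) were near background, where undetected Comp averaged 4.94 in rescued and 5.15 in knockout cells. These correlations describe 8 arrays that share the split into 2 groups.

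Other matricellular and adhesive glycoprotein genes moved both ways. Of 38 listed, 35 had a probe and 21 were detected, and of these 8 were higher, 6 were lower and 7 did not pass. That is 66.7%, while 39.9% of all 8633 genes with 1 tested probe each passed (21% higher, 18.9% lower). Among the 8 higher, Fbln7 was detected on 4 rescued and 1 knockout arrays. It was tested only through the rescued arrays where it is high, so its place in the count is partly set by the filter. With each chromosome centred the split was 6 higher and 7 lower. The median log2 difference was 0.05, beside 0.01 over all genes.

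The CCN family gene Ccn4 (Wisp1), which encodes a growth-promoting matricellular protein, averaged 11.56 ± 0.15 over rescued arrays and 9.28 ± 0.11 over knockout arrays (SD, n = 4 each). Its log2 difference was 2.27 (limma adjusted p = 3.55e-07), and its second probe differed by 1.80. Ccn5 (Wisp2), studied as an inhibitor of smooth muscle proliferation, rose by 2.22 on the log2 scale (adjusted p = 3.79e-07). Smoc1, a SPARC relative, rose by 1.82, and Tgfbi, a fasciclin-domain relative of periostin, by 1.28. Of the genes that were lower, the integrin ligand gene Npnt differed by -1.46, Pxdn, a peroxidase that cross-links collagen IV, by -0.73, the follistatin-like SPARC relative Fstl1 by -0.72 and Ecm1 by -0.54. Without background correction the dim Npnt and Pxdn differed by only -0.67 and -0.28, and both passed. With each chromosome centred Pxdn differed by -0.42, Ecm1 by -0.36 and Smoc1 by 2.13, and all passed. The remaining thrombospondin and tenascin genes of the list, Thbs4, Tnr and Tnn, were not detected on any array.

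Receptors of these proteins also moved both ways, by smaller amounts. Of 30 listed, 28 had a probe and 20 were detected, with 7 higher, 6 lower and 7 that did not pass (65%, against 39.9% of all genes). The median log2 difference was -0.08. The integrin subunit genes Itga6, Itga3 and Itgb1 were lower, with log2 differences of -1.08, -0.89 and -0.57 (limma adjusted p = 0.000355, 0.00194 and 0.000997). Without background correction Itga6 and Itga3 differed by -0.57 and -0.52, and both passed. Notch3, a smooth muscle receptor that binds thrombospondin 2, differed by -0.44 (adjusted p = 0.00624) but was detected on 1 rescued and 3 knockout arrays only. Without background correction it differed by -0.15 (adjusted p = 0.0403), and with normexp and an offset of 50 by -0.22. Cacna2d1, a calcium channel subunit that acts as a thrombospondin receptor in neurons, rose by 0.77 (adjusted p = 0.00169).

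The rises of the lipoprotein receptor gene Vldlr (0.77), the integrin gene Itgb6 (0.55) and the Wnt co-receptor gene Lrp5 (0.51) were called at adjusted p of 0.0349, 0.0387 and 0.0366. Their calls were lost on leaving out any of 5, 7 and 6 single arrays (adjusted p from 0.0633 to 0.0788 for Vldlr, 0.0507 to 0.099 for Itgb6 and 0.0515 to 0.095 for Lrp5). Without background correction Itgb6 differed by 0.33 and Lrp5 by 0.19, and Lrp5 lost its call (adjusted p = 0.0509). All 3 calls were lost without a detection filter, those of Itgb6 and Lrp5 with the replicate block, those of Vldlr and Lrp5 with each chromosome centred, and that of Lrp5 with array weights. Without knockout replicate 3 the count of receptor genes called was 8 in place of 13.

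**Figure D5:**
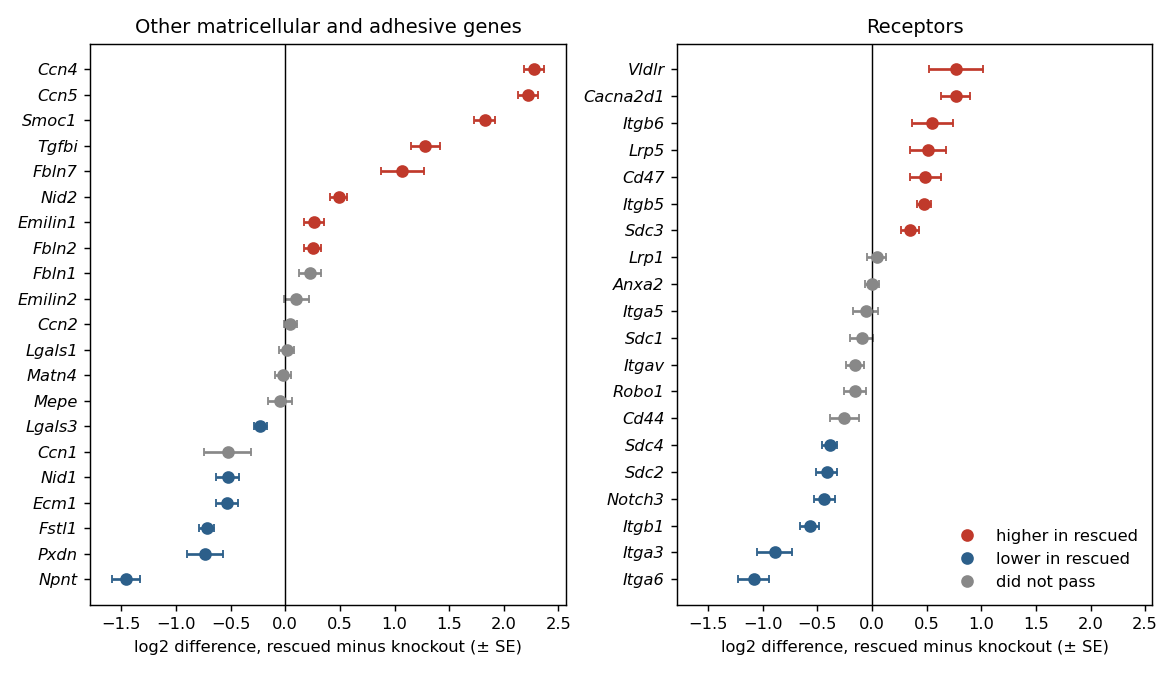
Log2 difference, rescued minus knockout, with its SE for the 21 detected matricellular and adhesive genes (left) and the 20 detected receptor genes (right), 1 probe per gene, with red for higher, blue for lower and grey for genes that did not pass. Ccn4 (2.27) and Npnt (-1.46) mark the ends of the left panel, and Vldlr (0.77) and Itga6 (-1.08) those of the right panel.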

How the data were processed

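Expression was measured on 8 one-colour Illumina bead arrays, 4 per group, labelled with biotinylated cRNA per the labels' protocols. The authors deposited an intensity per probe and array on a linear scale, not normalised per the file headers, with a detection p-value for each. The authors also deposited normalised log2 values, by a method not given in the sources used here. Those columns had a correlation of 1 with the values computed here, a largest gap of 0.0266 and medians from 5.17 to 5.18, so scale and direction were the same and probes were not centred.

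Intensities were background-corrected and quantile-normalised with neqc in limma 3.58.1 (R 4.3.3; offset 16), with the background inferred from the detection p-values. A probe was kept where its detection p was under 0.05 on 4 or more of the 8 arrays. Rescued minus knockout differences were estimated with lmFit and eBayes, with Benjamini-Hochberg adjustment across the 12658 kept probes and a threshold of 0.05. The fit was checked on simulated arrays with known changes. For genes in the 2 context lists the brightest kept probe was used. Per-array log2 differences between 2 member genes were compared between the groups by exact permutation tests. The platform annotation gave 1 symbol to 23978 probes, several to 0 and none to 1719, and 23962 matched RefSeq (GRCm38.p6) by gene identifier. The files name no build, so no probe positions are given.

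All member probes are named. From each context list the text names up to 4 genes higher and 4 lower with the largest change among those called, defining cell type markers, and the 5 genes most correlated with the members of largest rise and fall. Genes outside this rule were chosen after their values were seen. The members and lists were chosen with earlier results of these data known. The number of arrays limits the precision, and slides and scan dates are not given in the sources used here.

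Replicate numbers in the labels are shared between groups. Same-numbered arrays had correlations of deviations from their group means between -0.08 and 0.00, so there was no sign that the numbers pair the samples. Alternatives changed the background correction, normalisation, detection filter, variance model, array weights, replicate block, source of values, chromosome centring, probe averaging and threshold, and left out each array.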

Additional observations from a re-analysis of the deposited data

Results flagged for a closer look

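Among 28 groups of 4 arrays (14 probes in 2 groups), 3 held an array that stood further from its nearest neighbour, relative to the spread of the 4, than Dixon's 95% limit allows. By chance about 1 in 20 groups is singled out. The dim Thbs3 probe ILMN_2840956 stood at 5.30 on rescued replicate 4, with the next rescued array at 5.68. The Tnxb probe ILMN_2973958 stood at 8.79 on rescued replicate 1, with the next at 8.59. The Tnxb probe ILMN_2440823 stood at 7.37 on knockout replicate 4, with the next knockout array at 7.57. These gaps are small beside the Tnxb differences of 2.40 and 2.01 at the same 2 probes.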

How the results depend on the processing

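Over the settings run, the Thbs2 probe and the 3 Tnxb probes kept their direction and passed in all 20 alternatives each, with log2 differences from -5.12 to -3.63 for Thbs2 and from 1.52 to 2.51 for Tnxb. Over 15 alternatives, Thbs2 minus Thbs1 ran from -5.13 to -3.75, Thbs3 minus Thbs2 from 3.50 to 4.78, Tnxb minus Tnc from 2.33 to 3.17 and Thbs3 minus Thbs1 from -0.51 to -0.18. The exact p of the pairs that passed was already the smallest that the number of arrays allows, so it says nothing of their stability. The 2 bright Tnc probes and 1 Sparc probe lost their calls in 5, 7 and 8 of 20 alternatives. An adjusted p under 0.01 left 4 member probes and 3037 of all probes. A change of at least 1.5-fold (treat in limma) left 4 member probes (Thbs2 and Tnxb), 581 of all probes, 5 other matricellular genes and 0 receptor genes, of which 2 had an unadjusted p under 0.05. Leaving out each array in turn gave 4 to 7 member probes and 8 to 12 receptor genes called, with fewer samples in each fit. With the replicate number as a block, 6 member probes and 4206 of all probes were called, and Sparc probe ILMN_3059326 lost its call (adjusted p = 0.095), with no other member call changed. The correlations of deviations gave no sign that the numbers pair the samples. Each rescued array correlated best with a knockout array of another number (0.02 to 0.08). Deviations cancel within a group, so this follows from the negative same-number correlations and is no separate evidence. Signals near background limit Thbs3, the dim Tnc probes, Comp and Postn.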
